A study of Mus musculus with 6 samples.

Results

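The 9 genes described here encode the machinery by which the proximal tubule of the kidney recovers filtered protein, and they were chosen by symbol for that function: Lrp2, Cubn, Amn, Dab2, Clcn5, Ocrl, Lrpap1, Rab11a and Ctns. They are 9 of the 24422 genes in the count tables, and all 9 were among the 16509 genes that received an adjusted p when TfR1 knockout kidneys were compared with Control kidneys. RNA of whole mouse kidneys was sequenced at postnatal day 13 in 6 libraries, 3 Control and 3 TfR1 knockout. All 6 samples carried the strain label C57BL/6, and all mice ate chow with 220 ppm iron. Control kidneys were labelled wild type. In the knockout, Six2Cre removed part of the transferrin receptor gene Tfrc, which encodes TfR1, namely the exons of its transmembrane domain. This recombinase works in nephron progenitors and not in the ureteric bud, which forms the collecting ducts. The study describes this deletion as incomplete, with TfR1+ cells that escaped it within the tubules. The study names wild type littermates as controls for its RNA comparisons and counts mice as replicates, while the labels do not say which animal gave which sample. For other assays it used WT for littermates whose Tfrc alleles were floxed, that is, prepared for deletion. The wild type label does not tell whether these Controls carried such alleles, or Six2Cre.

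Megalin, encoded by Lrp2, and cubilin, encoded by Cubn, are large receptors of the apical membrane of the proximal tubule that together bind albumin, vitamin carrier proteins, hormones and transferrin in the filtrate. Cubilin has no membrane-spanning segment and reaches the surface bound to amnionless, encoded by Amn. The receptors are drawn into clathrin-coated pits through the adaptor disabled-2 (Dab2), release their cargo in endosomes that need the chloride-proton exchanger ClC-5 (Clcn5) and the inositol phosphatase OCRL (Ocrl), and return to the surface through recycling endosomes marked by Rab11a. The receptor-associated protein (Lrpap1) escorts megalin through the endoplasmic reticulum, and cystinosin (Ctns) exports cystine from the lysosomes in which the cargo is degraded.

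Short stretches of coding sequence that these proteins use to find one another are shown because the receptors, the adaptor and the chaperone are the genes whose counts are compared below. They were read from GENCODE transcripts of the mm9 (NCBIM37) build, 5′ to 3′, and the capitals mark the codons of the motif. Motifs are given in the single-letter amino acid code, with x for any residue. NPxY is the form of signal that the phosphotyrosine-binding domain of Dab2 recognizes in receptor tails, and it was found at residue 4524 and again at residue 4603 of the 4660 residues of megalin. A further NPxY match at residue 2856 lay 1801 residues before the end of the protein. No NPxY match was found in the 3623 residues of cubilin, which held the related NPxF at residues 3476 and 3524. Cubilin has no membrane-spanning segment and so no tail inside the cell, and these matches are not read as endocytic signals. Amnionless, with 458 residues, held NPxF at residues 410 and 447, where it serves as its endocytic signal. The receptor-associated protein ended in HNEL, a signal for retention in the endoplasmic reticulum, and cystinosin held its lysosomal signal GYDQL at residue 362 of 367.
Lrp2 NPxY, residue 4524: atatttgaaAACCCAATGTATgcagccaaa
Lrp2 NPxY, residue 4603: aacttcgaaAATCCAATCTATgcagagatg
Amn NPxF, residue 410: ggtttccgaAATCCGATTTTCgacgcgatt
Amn NPxF, residue 447: tgcttcgttAACCCACTCTTTgctggggag
Lrpap1 HNEL, residue 357: agggctcggCACAATGAGCTC
Ctns GYDQL, residue 362: aagaaaccaGGGTACGACCAGTTGaat

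Total gene counts ran from 16591156 to 22898008 per library. Values are given as normalized counts, that is, counts divided by the size factor of the library. Control replicate 3 stood apart from the other Controls. Its summed proximal tubule list, 25 genes that do not include the 9, was 53% of the mean of Control replicates 1 and 2, while its summed stroma list was 201%, its macrophage list 170% and its endothelium list 156% of theirs. It was the lowest Control library for 8 of the 9 genes, and the fold changes, ratios and call counts are therefore also given without it. Of the genes of other lists named below as called, Ap2b1 and Ctsl were not called without it. The targeted gene Tfrc had 5534, 6485 and 3667 normalized counts in Control and 6976, 4045 and 5898 in knockout kidneys, so the groups overlapped and the gene did not check the labels (DESeq2 adjusted p 0.853, with a log2 fold change of 0.11 and an SE of 0.29). It was -0.09 without Control replicate 3, and -0.07 without knockout replicate 1. These counts are per gene, and the deletion removed only some exons of Tfrc.

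Of the 9 genes, Lrp2, Dab2 and Lrpap1 fell in TfR1 knockout kidneys and Clcn5 rose. The other 5, which include Cubn and Amn, did not pass the test (DESeq2 Wald test, adjusted p under 0.05 over all genes, no threshold on the fold). Over all genes tested, 14.9% were called, 7.18% as lower and 7.74% as higher. The median log2 fold change of the 9 was -0.57, beside 0.0072 for all tested genes. edgeR's quasi-likelihood test, which made fewer false calls on simulated counts, called 2 of the 9 as lower, Dab2 and Lrpap1, and 0 as higher, with 5 of the 9 at an unadjusted p under 0.05, as were 25.8% of all its genes. edgeR called 6.02% of its 15308 genes, 2.8% as lower and 3.22% as higher. The Control and knockout libraries did not overlap for 4 of the 9 genes, beside 33.7% of all genes with an adjusted p. DESeq2 without Control replicate 3 called 5 genes as lower, now with Cubn and Amn, and 1 as higher. In RNA of a whole kidney, fewer proximal tubule cells and less RNA per cell cannot be told apart.

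**Figure D1:**
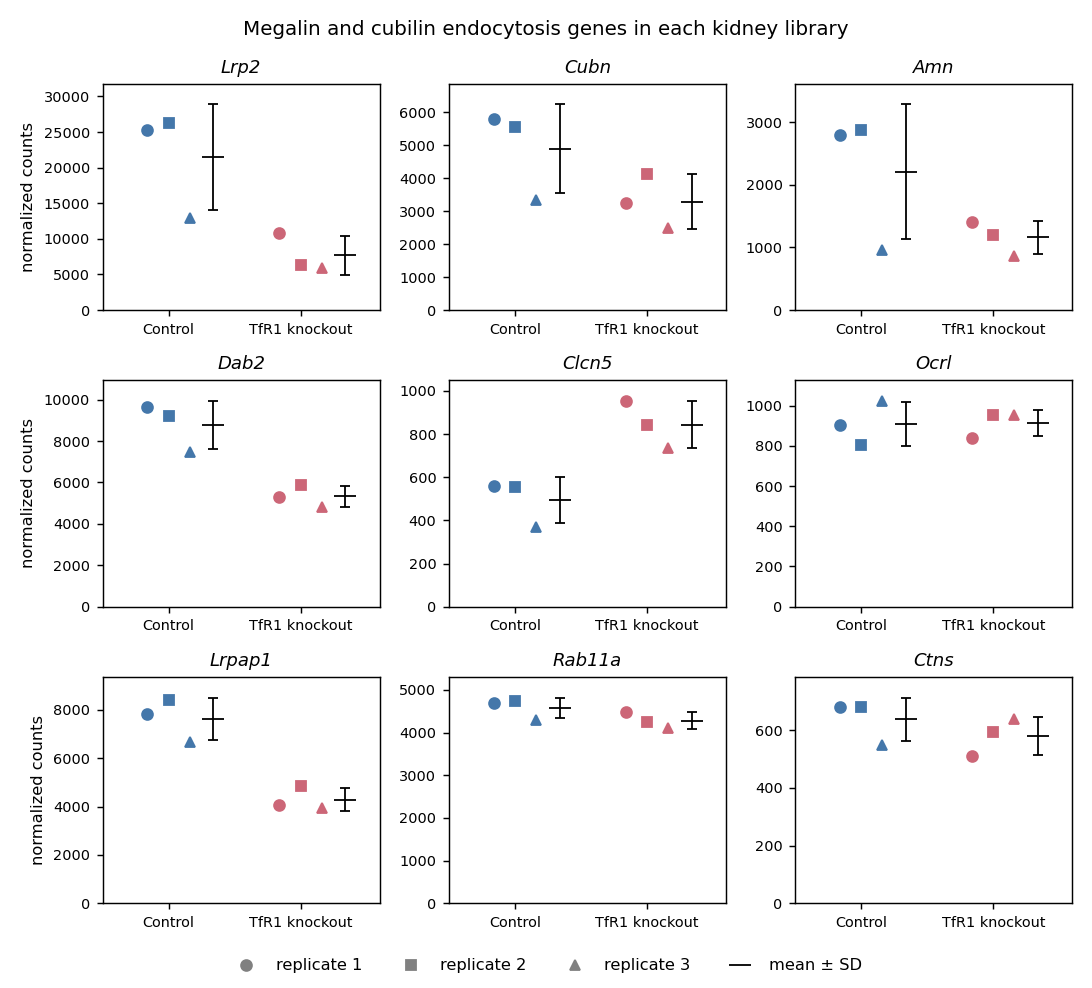
Normalized counts (vertical axes, each starting at 0) of the 9 genes in the 3 Control and 3 TfR1 knockout libraries, 1 point per library, with bars for the group mean and its SD. The groups are separate for Lrp2, Dab2, Lrpap1 and Clcn5, and Control replicate 3 is the lowest Control in every panel but that of Ocrl.

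Megalin showed the largest change of the 9. Lrp2 (chr2:69262397-69424122, minus strand, mm9, 79 exons) had 25256, 26254 and 12909 normalized counts in Control and 10851, 6311 and 5937 in knockout kidneys. Every knockout library lay below every Control library, and knockout replicate 1 lay next to Control replicate 3. The knockout mean was 35.9% of the Control mean, with 21473 ± 7433 against 7700 ± 2736 (SD, n = 3 each). The log2 fold change was -1.48 (SE 0.35, 95% interval -2.16 to -0.80, DESeq2 adjusted p 0.00046). edgeR gave an adjusted p of 0.0537 and limma-voom 0.05, so the call rested on DESeq2. Without Control replicate 3 the log2 fold change was -1.75, with an adjusted p of 2.95e-07 by DESeq2 and 0.0319 by edgeR. DESeq2 called Lrp2 with any 1 library left out, at log2 fold changes from -1.81 to -1.32, and edgeR in 2 of these 6 fits, with adjusted p from 0.131 to 0.174 in the others.

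Cubilin, the partner receptor, differed less and did not pass. Cubn (chr2:13197965-13413551, minus strand, 67 exons) had 5796, 5552 and 3337 normalized counts in Control and 3249, 4141 and 2477 in knockout kidneys. Control replicate 3 lay among the knockout libraries. The log2 fold change was -0.57 (SE 0.29, DESeq2 adjusted p 0.18, edgeR adjusted p 0.208). Without Control replicate 3 it was -0.79 and passed in DESeq2 (adjusted p 0.0194) but not in edgeR (0.0894). An antisense gene, Gm13270, overlaps 161 exon bases of Cubn, 1.36% of them, and whether strand was used in counting is not given in the sources used here.

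Amnionless, which carries cubilin to the membrane, varied most within the Controls. Amn (chr12:112509322-112514637, plus strand, 12 exons) had 2796, 2869 and 964.5 normalized counts in Control and 1404, 1204 and 871.2 in knockout kidneys. Control replicate 3, at 34% of the mean of the other Controls, lay below 2 of the 3 knockout libraries. The log2 fold change was -0.93 (SE 0.40, DESeq2 adjusted p 0.104, edgeR adjusted p 0.188). It was -1.29 without Control replicate 3 and passed in both tools (adjusted p 7.61e-06 by DESeq2 and 0.0276 by edgeR).

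The adaptor and the chaperone of megalin fell by similar amounts. Dab2 (chr15:6249788-6390712, plus strand, 15 exons) had 9662, 9206 and 7451 normalized counts in Control and 5293, 5856 and 4838 in knockout kidneys, with no overlap. Its log2 fold change was -0.72 (SE 0.18, DESeq2 adjusted p 0.00096, edgeR adjusted p 0.0464). It was -0.83 without Control replicate 3 (DESeq2 adjusted p 1.5e-05), and without Control replicate 1 it was -0.65 and missed the threshold (adjusted p 0.0508). The annotation holds a further record of the same name that shares 1374 exon bases with Dab2, and how reads there were counted is not given in the sources used here.

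Lrpap1 (chr5:35434139-35448415, minus strand, 8 exons) had 7833, 8389 and 6662 normalized counts in Control and 4075, 4834 and 3944 in knockout kidneys. The lowest Control library was above the highest knockout library by more than the range of the knockout group. The log2 fold change was -0.83 (SE 0.17, DESeq2 adjusted p 5.83e-05, edgeR adjusted p 0.0275). Without Control replicate 3 it was -0.92 (DESeq2 adjusted p 4.22e-06). With 1 library left out, DESeq2 called it in all 6 fits and edgeR in 2, and edgeR called Dab2 in 1. Across the 6 libraries the centred log2 profiles of Dab2 and Lrpap1 differed by a root mean square of 0.084, the smallest value of all pairs among the 9 genes. The next pair was Rab11a with Ctns at 0.15. These profiles share their libraries and scaling, and the values are descriptions.

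Clcn5, the endosomal exchanger mutated in Dent disease, was the 1 gene of the 9 that rose. Clcn5 (chrX:6730936-6896484, minus strand, 12 exons) had 559.8, 552.6 and 371.4 normalized counts in Control and 953.7, 843.1 and 734.1 in knockout kidneys. The groups did not overlap, and the fitted fold was 1.7. The log2 fold change was 0.77 (SE 0.24, DESeq2 adjusted p 0.012), while edgeR gave an adjusted p of 0.0694. Without Control replicate 3 it was 0.60 (DESeq2 adjusted p 0.0263), and without knockout replicate 1 it was 0.67 and missed the threshold (adjusted p 0.0583).

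Ocrl, mutated in Lowe syndrome and in a further form of Dent disease, showed no detectable difference. Ocrl (chrX:45265564-45319045, plus strand, 24 exons) had 902, 805.3 and 1024 normalized counts in Control and 840.3, 951.9 and 951.6 in knockout kidneys, and all knockout libraries lay within the Control range. The log2 fold change was 0.007 (SE 0.17, 95% interval -0.33 to 0.35, DESeq2 adjusted p 0.986), and its sign changed with the scaling. It was 0.10 without Control replicate 3 (adjusted p 0.78). Clcn5 and Ocrl lie on the X chromosome, and the sexes were not balanced: Xist, expressed from an inactive X, had 16704, 78.17 and 22092 normalized counts in Control and 145.2, 27153 and 1031 in knockout kidneys. With Xist as a covariate, an alternative chosen after seeing the data, the log2 fold change was 0.75 for Clcn5 (DESeq2 adjusted p 0.022) and 0.04 for Ocrl.

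The recycling and lysosomal genes did not pass. Rab11a (chr9:64563106-64585565, minus strand, 5 exons) had 4684, 4753 and 4302 normalized counts in Control and 4492, 4243 and 4109 in knockout kidneys, the narrowest spread of the 9. Its log2 fold change was -0.10 (SE 0.13, 95% interval -0.35 to 0.16, DESeq2 adjusted p 0.68), and without Control replicate 3 it was -0.14 (adjusted p 0.55). Ctns, the gene of cystinosis (chr11:72997098-73012544, minus strand, 12 exons), had 681.1, 680.8 and 550 normalized counts in Control and 509.2, 592.4 and 638.5 in knockout kidneys, with overlapping groups. Its log2 fold change was -0.14 (SE 0.19, 95% interval -0.51 to 0.24, DESeq2 adjusted p 0.695), and without Control replicate 3 it was -0.23 (adjusted p 0.48). The intervals leave room for modest changes in both genes.

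**Figure D2:**
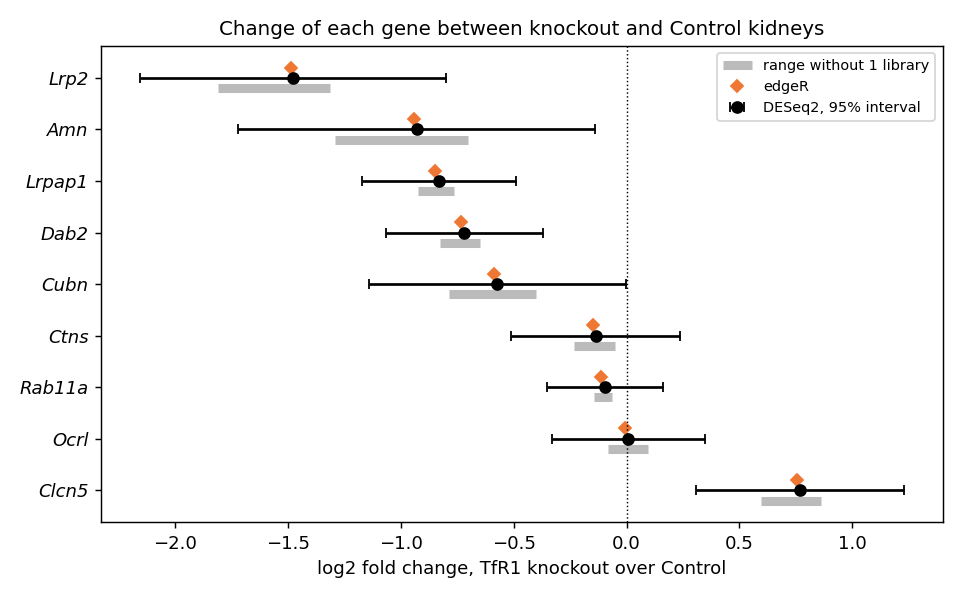
Log2 fold change of TfR1 knockout over Control (horizontal axis) for the 9 genes, with points and bars for DESeq2 and its 95% intervals, diamonds for edgeR, and grey bands for the range of DESeq2 values with 1 library left out. Lrp2 lies lowest at -1.48 and Clcn5 highest at 0.77, and the grey band crosses 0 for Ocrl alone among the 9.

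Levels of different genes were compared as normalized counts per kb of exon. In Control kidneys Lrpap1 was highest at 1848 ± 213.6 per kb (SD, n = 3), followed by Rab11a at 1531, Amn at 1312 ± 640.5, Lrp2 at 1286 ± 445.1 and Dab2 at 1195 ± 159. Rab11a, Amn, Lrp2 and Dab2 overlapped between neighbours in this order. Cubn followed at 414.3 per kb, Ctns at 187.9, Ocrl at 95.97 and Clcn5 at 43.19, and none of these neighbours overlapped. The level of Lrp2 per kb thus exceeded that of its partner receptor in all Control libraries. With the length of the longest coding sequence in place of all exon bases, Rab11a (7068 per kb) and Lrpap1 (7063) led with almost equal levels, Dab2 (3818) stood above Amn (1608) and Lrp2 (1536), and Cubn (450.4) stood below Ctns (578.8). Control replicates 1 and 2 alone had 1659 and 1703 per kb of exon for Amn, 1512 and 1572 for Lrp2, 1566 and 1589 for Rab11a and 1316 and 1254 for Dab2, so that Amn stood above Rab11a.

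In TfR1 knockout kidneys the order per kb of exon was Rab11a at 1431, Lrpap1 at 1038, Dab2 at 725.8, Amn at 688.3, Lrp2 at 461, Cubn at 278.4, Ctns at 171, Ocrl at 96.42 and Clcn5 at 73.67. Dab2 and Amn overlapped, as did Amn and Lrp2, and the other neighbours did not. Per kb of coding sequence, Cubn was the lowest of the 9 at 302.6, below Ocrl at 338.7 and Clcn5 at 344.6. Among 17381 genes with a length and a read, the level of Lrp2 stood at percentile 94.9 in Control and 83.9 in knockout kidneys, that of Cubn at 83.2 and 74.5, and that of Rab11a at 95.9 and 95.2. Clcn5 stood at 39.2 and 47.2.

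**Figure D3:**
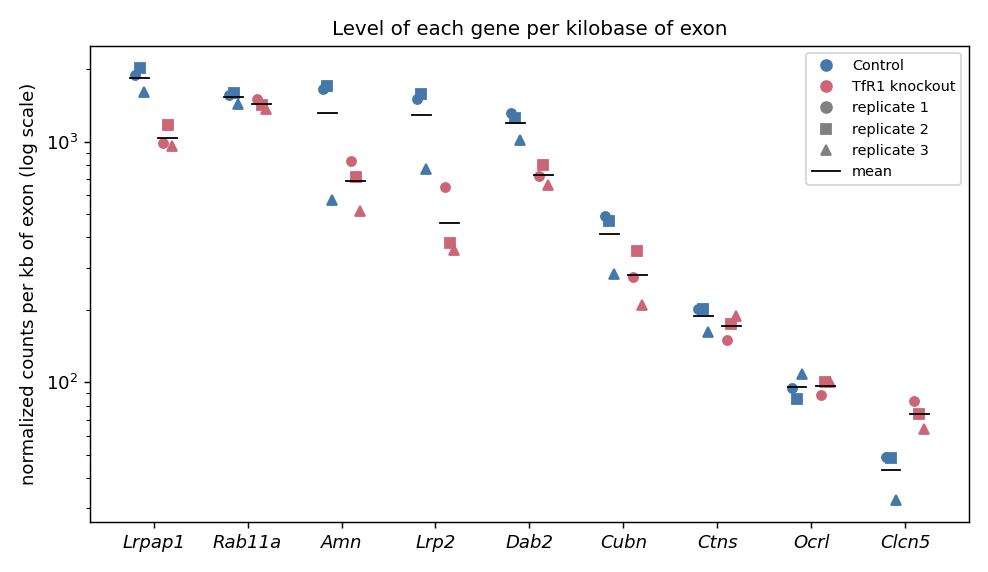
Normalized counts per kb of exon (log axis) for the 9 genes in each Control and TfR1 knockout library, with the group means. Lrp2 moves from the group of highly expressed genes in Control kidneys towards Cubn in knockout kidneys, and Clcn5 is the lowest of the 9 in both groups.

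Ratios between partners within a library do not depend on scaling, and 7 were tested with a two-sided exact permutation test, which cannot go below 0.1 with 3 libraries against 3. The log2 ratio of Lrp2 over Cubn was 2.12, 2.24 and 1.95 in Control and 1.74, 0.61 and 1.26 in knockout kidneys. All knockout ratios were below all Control ratios, with a difference of -0.90 (exact permutation p 0.1, 0.175 adjusted over the 7 ratios). Cubn over Amn, the receptor and its carrier, differed by 0.24 with overlapping groups (exact permutation p 0.6). Lrp2 over Dab2 differed by -0.75 and Lrp2 over Lrpap1 by -0.63, both with overlap (exact permutation p 0.2 each). Clcn5 over Ocrl, a pair of Dent disease genes, differed by 0.78 without overlap, and Rab11a and Ctns over Lrp2 differed by 1.37 and 1.33 without overlap (exact permutation p 0.1 each). With any 1 library left out, none of the 7 differences changed sign, and that of Lrp2 over Cubn ran from -1.17 to -0.61. The differences without Control replicate 3 were -0.98 for Lrp2 over Cubn, 0.50 for Cubn over Amn, -0.97 for Lrp2 over Dab2, -0.87 for Lrp2 over Lrpap1, 0.49 for Clcn5 over Ocrl, and 1.66 and 1.56 for Rab11a and Ctns over Lrp2.

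The genes were next set beside the 25 other proximal tubule genes, as the log2 level minus the mean log2 level of that list in the same library. The list mean was 12.69, 12.75 and 11.8 in Control and 11.97, 11.96 and 11.55 in knockout kidneys. By this mean of logs, the list was lower in Control replicate 3 and in the knockout libraries than in Control replicates 1 and 2. Its summed normalized counts were lower than in these Controls in knockout replicates 1 and 3 but higher in knockout replicate 2. The groups overlapped, at 261034, 269815 and 140664 in Control and 239073, 364146 and 210766 in knockout kidneys. Pck1, a list gene that rose, held 27010, 33371 and 19947 of these counts in Control and 88960, 171509 and 88676 in knockout kidneys. Relative to the list mean of logs, Lrp2 was at 1.93, 1.93 and 1.86 in Control and 1.44, 0.67 and 0.99 in knockout kidneys. Control replicate 3 joined the other Controls on this scale, and the groups did not overlap, with a difference of -0.88 (exact permutation p 0.1, 0.45 adjusted over the 9 genes). Cubn was at -0.19, -0.31 and -0.09 in Control and -0.30, 0.06 and -0.27 in knockout kidneys, a difference of 0.03 with overlap (exact permutation p 0.8). Clcn5 differed by 1.38 without overlap (exact permutation p 0.1).

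The remaining differences on this scale were -0.21 for Amn, -0.12 for Dab2 and -0.24 for Lrpap1, all with overlapping groups (exact permutation p 0.4, 0.7 and 0.6). Those of Ocrl, Rab11a and Ctns were 0.60, 0.49 and 0.46, also with overlap (exact permutation p 0.3 each). Not set against the list, the log2 fold changes of Ocrl, Rab11a and Ctns were 0.007, -0.10 and -0.14. The cells that carried the counts were not identified, so this scale does not give a change per proximal tubule cell. Leaving out Control replicate 3 gave -0.90 for Lrp2, 0.08 for Cubn, 1.49 for Clcn5, -0.42 for Amn, 0.07 for Dab2 and -0.03 for Lrpap1, and 1.00, 0.76 and 0.66 for Ocrl, Rab11a and Ctns. Against the list median in place of its mean, Lrp2 differed by -1.19, Cubn by -0.28, Amn by -0.52, Dab2 by -0.44, Lrpap1 by -0.55 and Clcn5 by 1.07. Of the 25 list genes, 5 had a log2 fold change below that of Lrp2, 9 below that of Cubn, 7 below that of Amn and 21 below that of Clcn5. The list is not uniform, as the next genes show.

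**Figure D4:**
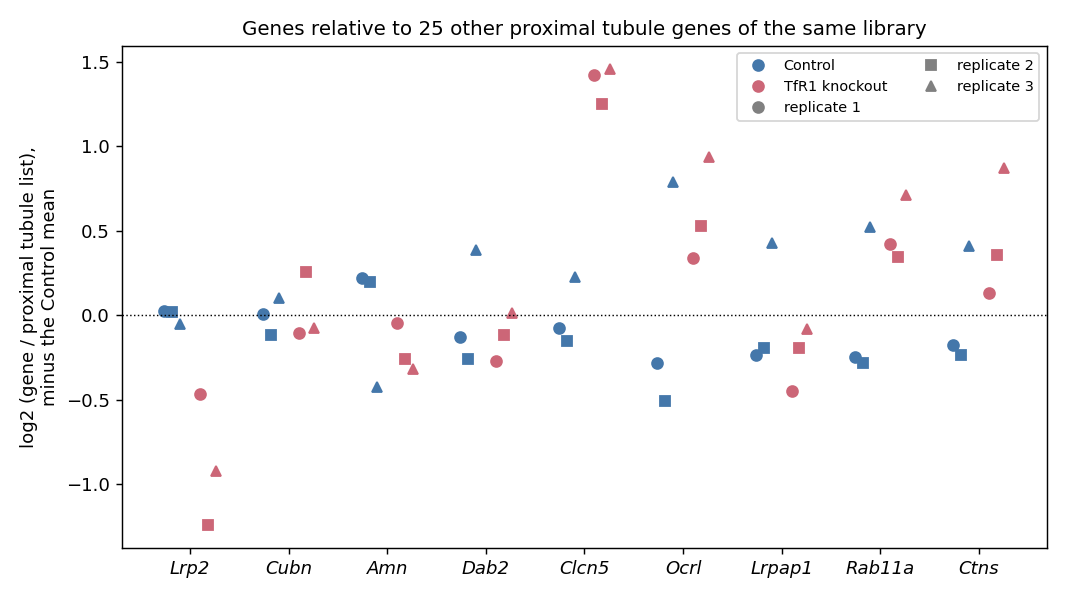
Log2 level of each of the 9 genes minus the mean log2 level of 25 other proximal tubule genes in the same library, shown after subtracting the Control mean of the gene (vertical axis), 1 point per library. Control and TfR1 knockout libraries are separate for Lrp2 and Clcn5 and overlap for the other 7 genes.

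Of the 25 proximal tubule genes, 6 were lower and 2 higher in knockout kidneys by DESeq2, with a median log2 fold change of -0.31 (edgeR 3 and 2). The counts were 9 lower and 2 higher without Control replicate 3. Slc5a2, the glucose transporter of the early proximal tubule, fell most, from 4539 ± 1355 to 130.2 ± 60.61 normalized counts (log2 fold change -5.12, DESeq2 adjusted p 6.69e-40). Gatm, an enzyme of creatine synthesis, fell by 1.87 on the log2 scale (DESeq2 adjusted p 0.0019, edgeR adjusted p 0.084). Pck1, the gluconeogenic enzyme, rose by 2.12 and Slc22a6, the organic anion transporter OAT1, by 1.79 (DESeq2 adjusted p 6.86e-09 and 0.000105). The transcription factor gene Hnf4a had a log2 fold change of -0.24 (DESeq2 adjusted p 0.693).

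The promoters of the receptor pair are shown because megalin and cubilin act together in the same cells. They are the 250 bases before the RefSeq start site in GRCm38.p6, on the minus strand, and capitals mark a CAAAGT, a half-site of the kind bound by HNF4 factors. It was found at position -154 from the start of Lrp2 and not in the window of Cubn.
Lrp2, chr2:69586030-69586279: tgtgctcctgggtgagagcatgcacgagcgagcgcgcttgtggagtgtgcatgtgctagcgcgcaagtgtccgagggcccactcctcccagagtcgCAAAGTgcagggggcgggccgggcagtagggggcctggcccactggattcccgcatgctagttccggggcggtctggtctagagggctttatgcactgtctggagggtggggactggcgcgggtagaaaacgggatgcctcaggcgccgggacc
Cubn, chr2:13491877-13492126: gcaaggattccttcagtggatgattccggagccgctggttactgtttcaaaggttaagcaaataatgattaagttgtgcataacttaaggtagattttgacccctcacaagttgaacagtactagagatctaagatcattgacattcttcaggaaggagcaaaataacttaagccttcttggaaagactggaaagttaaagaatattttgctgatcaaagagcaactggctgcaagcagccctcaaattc
All 9 genes matched the RefSeq table, with 12 promoters in all. On either strand, CAAAGT (or ACTTTG) was in 4 of these 12, those of Lrp2, Ocrl and Clcn5 and 1 of Dab2, genes that fell, rose and did not pass, and in 12.6% of 32851 mouse promoters of that length. The palindrome CACGTG, an E-box, was in 1 of 12, that of Amn, and in 6.02%. A match is a stretch of letters and not a measured binding site.

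The genes whose profile over the 6 libraries was most like that of Lrp2, among 12114 genes averaging 100 normalized counts or more, were Rap1gap, Ddo, Acss2, Kynu and Slc51b. Their root mean square differences from Lrp2 were 0.11 to 0.17 on the centred log2 scale, where the median gene differed by 0.89. Rap1gap, a GTPase-activating protein of Rap1, had 2540, 2616 and 1315 normalized counts in Control and 1263, 697.3 and 714.2 in knockout kidneys, the same order of levels as Lrp2 in the Controls. Ddo, an oxidase of acidic D-amino acids, had a log2 fold change of -1.63 (DESeq2 adjusted p 0.000124). Those most like Cubn were Pcca, A1cf, Abat, Isoc2a and Col4a4, at 0.069 to 0.11 beside a median of 0.51. Pcca, a subunit of propionyl-CoA carboxylase, had 3099, 3168 and 1958 normalized counts in Control and 1929, 2152 and 1396 in knockout kidneys. Lrp2 and Cubn differed from each other by 0.56 on this scale, so the 5 nearest to each could not share a gene. All these genes were picked for their match over these 6 libraries, and their fold changes are descriptions and not a further test.

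The general machinery of endocytosis was read beside the 14.9% of all genes called in either direction. Of 15 genes of the clathrin coat and its adaptors, 0 were lower and 2 were higher, with a median log2 fold change of 0.23. Dnm2, the dynamin that pinches off vesicles, rose from 2009 ± 150.7 normalized counts to 2811 ± 174.1 (log2 fold change 0.48, DESeq2 adjusted p 0.0104, edgeR adjusted p 0.0709). Ap2b1, a subunit of the AP-2 adaptor, rose by 0.36 (DESeq2 adjusted p 0.033). edgeR called 0 of the 15. DESeq2 without Control replicate 3 called 1 as higher and gave Ap2b1 an adjusted p of 0.0956, and without Control replicate 1, Control replicate 2 or knockout replicate 3 it called 0 as higher.

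Of 16 genes of sorting and recycling endosomes, 1 was lower and 0 were higher. This was Rab11fip3, an effector of Rab11, with a log2 fold change of -0.79 (DESeq2 adjusted p 0.037), and it was not called without Control replicate 1 or 2 or knockout replicate 2 or 3. Of 18 tested genes of endosome acidification, 0 were lower and 1 was higher: Atp6v0a1, a subunit of the proton pump, rose from 1230 ± 201.5 normalized counts to 1861 ± 24.52 (log2 fold change 0.60, DESeq2 adjusted p 0.0122). In neither list did edgeR call a gene, and without Control replicate 3 the acidification list had 1 lower and 1 higher gene. Without Control replicate 1, Control replicate 2 or knockout replicate 3 the acidification list had 0 higher genes. The medians of 0.03 and 0.02 were near that of all genes tested.

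The lysosome list was divided. Of its 22 genes, 2 were lower and 3 higher, with a median log2 fold change of 0.15 (edgeR 0 and 1). Ctsd, the aspartic protease cathepsin D, had 13483, 15308 and 14046 normalized counts in Control and 43326, 45456 and 33090 in knockout kidneys, all knockout libraries far above the Controls. Its log2 fold change was 1.51 (DESeq2 adjusted p 3.27e-14, edgeR adjusted p 0.0123). Gla, which encodes alpha-galactosidase, rose by 0.77 (DESeq2 adjusted p 0.00392). Ctsl, the cysteine protease cathepsin L, fell by 0.77 on the log2 scale (DESeq2 adjusted p 0.0383). Leaving out Control replicate 3 gave 1 lower and 4 higher genes and a log2 fold change of -0.68 for Ctsl (adjusted p 0.124), and without Control replicate 1, Control replicate 2 or knockout replicate 3 no gene of the list was lower. Higher genes numbered 1 without Control replicate 1 or 2, and 2 without knockout replicate 2 or 3.

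The LDL receptor family, to which megalin belongs, had no other gene called as lower from all 6 libraries. Of 12 tested, 0 were lower and 3 higher, with a median log2 fold change of 0.19. Vldlr, the VLDL receptor, had 3038, 3056 and 2794 normalized counts in Control and 4879, 4098 and 4634 in knockout kidneys, with no overlap (log2 fold change 0.61, DESeq2 adjusted p 0.000569, edgeR adjusted p 0.0458). Sorl1, a sorting receptor, rose by 0.90 (DESeq2 adjusted p 0.0341, edgeR adjusted p 0.113). With any 1 Control library left out 2 genes were higher, with any 1 knockout library left out 1 was, and without knockout replicate 1 there was also 1 lower.

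Of 20 genes of receptor ligands and vitamin handling, 1 was lower and 9 were higher, with a median log2 fold change of 1.09 (edgeR 1 and 8). Cyp24a1, the enzyme that inactivates vitamin D, had 222.6, 318.1 and 212.1 normalized counts in Control and 2353, 2103 and 1645 in knockout kidneys (log2 fold change 3.02, DESeq2 adjusted p 1.64e-31). Lcn2, the siderophore-binding lipocalin, rose from 344.4 ± 104.5 to 2460 ± 877.6 (log2 fold change 2.84, DESeq2 adjusted p 5.05e-16). Apom, an apolipoprotein and megalin ligand, fell from 1636 ± 191.5 to 104.9 ± 50.1 (log2 fold change -3.97, DESeq2 adjusted p 4.64e-24). Alb, which encodes albumin and is made mainly in liver, had 28.03, 15.45 and 13.99 normalized counts in Control and 432.6, 371 and 67.16 in knockout kidneys (log2 fold change 3.91, DESeq2 adjusted p 3.7e-08). These are transcripts counted in whole-kidney RNA and do not measure the filtered proteins. Where the transcripts were made was not tested. Leaving out 1 library gave 8 to 11 higher genes, and 9 without Control replicate 3.

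**Figure D5:**
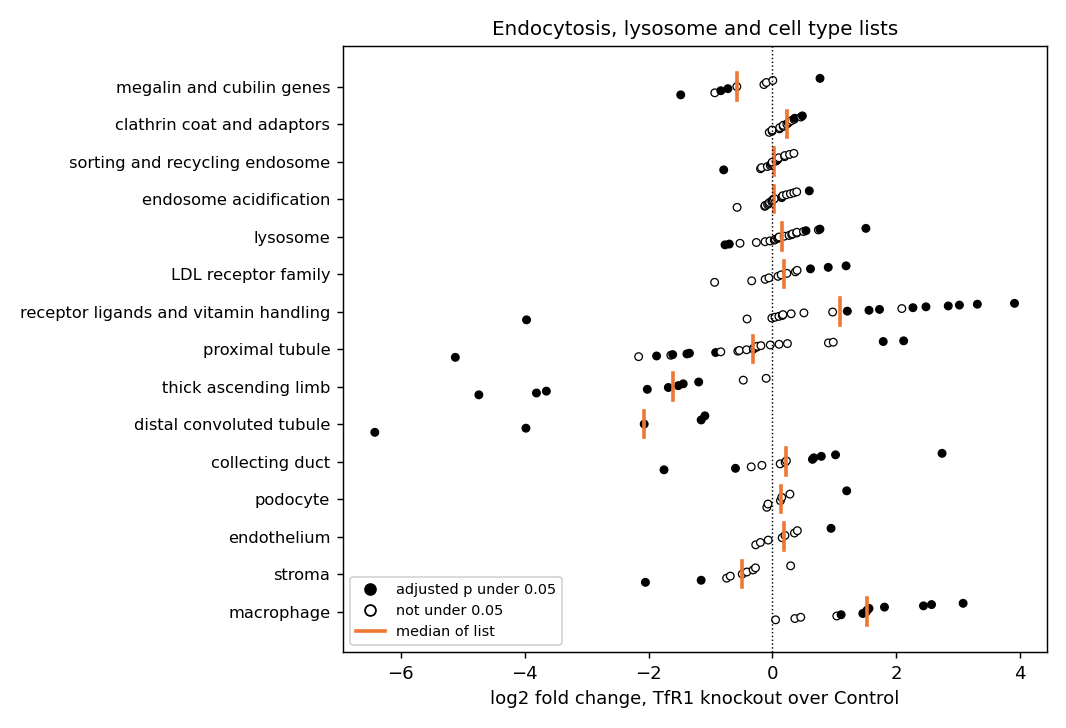
Log2 fold change of TfR1 knockout over Control (horizontal axis) for each tested gene of the 9 and of 14 other gene lists (rows), 1 point per gene, filled where DESeq2's adjusted p was under 0.05, with a bar for the list median. The thick ascending limb and distal convoluted tubule lists have the lowest medians, at -1.6 and -2.07, and the macrophage list the highest, at 1.52.

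Other cell types moved with the groups too. Of 10 thick ascending limb genes 8 were lower (median log2 fold change -1.6) and of 5 distal convoluted tubule genes all 5 (median -2.07). Of 14 macrophage genes 10 were higher, and their summed level was 3125 to 5440 normalized counts in Control and 9709 to 11688 in knockout kidneys. The counts without Control replicate 3 were 8 of 10, 5 of 5 and 11 of 14. Macrophages take up proteins through Lrp1, and Dab2 and the lysosomal genes are not confined to the proximal tubule, so the cells that carried these counts were not identified. The collecting duct list had 2 lower and 5 higher genes of 12, but edgeR called 1 and 1. DESeq2 called 3 as higher without Control replicate 1, knockout replicate 1 or knockout replicate 2, and 4 without Control replicate 3. The collecting duct forms outside Six2Cre activity. However, the study reports Aqp2, a gene of this list, in connecting segments of the knockout too, so the list is not confined to that lineage. The podocyte, endothelium and stroma lists had 1, 1 and 0 higher genes and 0, 0 and 2 lower genes of 6, 8 and 9, and without Control replicate 3 the stroma list had 0 lower and 1 higher gene and the endothelium list 2 higher. The part of these cell types in the results on the 9 genes was not tested.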

How the data were processed

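RNA of 6 whole kidneys was sequenced from Illumina TruSeq libraries. The authors deposited raw counts of reads per gene, and the submitters' processing notes name CASAVA 1.8.2, Trimmomatic, TopHat2 2.0.11, HTSeq and the build mm9. The annotation release and the use of strand are not given in the sources used here. Groups and replicate numbers came from the sample titles and genotype labels. Total counts of 16591156 to 22898008 per library make counting error small for most of the 9 genes, and the number of libraries limits the precision.

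The counts were fitted for all genes with a DESeq2 1.42.0 Wald test in R 4.3.3 (median-ratio size factors, no covariate, Benjamini-Hochberg adjustment, independent filtering tuned at 0.05, calls at an adjusted p under 0.05 with no fold threshold). This left 16509 genes with an adjusted p, and 29 genes with a read had no p-value. edgeR 4.0.16 (quasi-likelihood, TMM) is given beside it. The deposited tables hold no normalized values. Log2 fold changes were not shrunken. Exact permutation tests went through every split of the libraries into groups, and scipy 1.17.1 gave their Benjamini-Hochberg adjustment. Lengths and positions came from GENCODE M1 (NCBIM37) by symbol, for 20609 genes, and promoters from RefSeq (GRCm38.p6).

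The 9 genes and the 14 other lists (203 symbols with the 9, all found) were chosen with earlier results of these data known. Named from the other lists were up to 4 called genes averaging 100 normalized counts or more, those with the largest absolute log2 fold change, and for Lrp2 and Cubn the 5 genes with the nearest centred profile of log2 normalized counts plus 1. Hnf4a was named outside this rule, after its value was seen, because a motif of its factor was searched. A gene that the rule names in the lysosome list is not reported here, and the lists of cell types other than the proximal tubule are given by counts alone.

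On simulated counts of 19985 genes, 200 of them changed, DESeq2 called 215 genes, with 97.1% of 4-fold and 65.3% of 2-fold changes recovered and 23.7% of calls false. edgeR called 135, with 93.3%, 35.8% and 2.22%. Alternatives were voom in limma 3.58.1, further size factors, filters, outlier handling, a block for replicate number and the omission of each library in turn. edgeR with each library left out and Xist as a covariate were added after seeing the data.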

Additional observations from a re-analysis of the deposited data

How the results depend on the processing

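With 3 libraries per group, DESeq2 made more false calls than its nominal level on simulated counts, in which 200 of 19985 genes were changed. In the data it called 14.9% of the genes tested, and the share of false calls among these was not measured. Calls that edgeR did not share rest on 1 tool. Lrp2, Dab2 and Lrpap1 kept a negative and Clcn5 a positive log2 fold change under every setting run, and Cubn and Amn stayed negative. Over all genes, DESeq2 called 1186 lower and 1277 higher, edgeR 428 and 493, and limma-voom 456 and 485. Both of the latter called 0 of the 9 as higher and 2 as lower. Total-count size factors shifted the median log2 fold change of all genes by -0.105 and made 58.6% of calls lower, in place of 48.2%, with 4 of the 9 lower, Cubn among them (adjusted p 0.0478). Leaving out 1 library gave 575 (without Control replicate 1) to 1674 (without knockout replicate 1) lower and 664 to 1531 higher genes, and 2 to 5 lower and 0 to 1 higher of the 9. edgeR with 1 library left out called 0 to 4 of the 9 as lower, with 0 without Control replicate 1, Control replicate 2 or knockout replicate 3, and 0 as higher in all 6 fits. Values near 0 changed sign. Ocrl, at 0.007, was at -0.015 with TMM factors, -0.0088 in edgeR, -0.0017 in limma-voom, -0.104 with total-count and -0.047 with upper-quartile size factors, and ran from -0.080 to 0.096 with 1 library left out. In edgeR it was -0.016 without Control replicate 1, -0.073 without Control replicate 2, -0.025 without knockout replicate 2 and -0.040 without knockout replicate 3. Tfrc ran from -0.095 to 0.30, and in edgeR was -0.10 without Control replicate 3 and -0.092 without knockout replicate 1. Relative to the proximal tubule list, Cubn ran from -0.088 to 0.092 and was -0.28 against the list median, and Dab2 ran from -0.25 to 0.070. The cause of these changes was not tested beyond the samples or scaling they name.

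With the replicate block, 5 of the 9 were lower, Cubn (adjusted p 0.0479) and Amn (adjusted p 0.0161) among them, and 1087 genes were lower and 1085 higher over all. The deviations of same-numbered samples correlated at 0.015, 0.066 and 0.16, so the numbers were not taken as pairs.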
